A study of Mus musculus with 24 samples.

Results

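Collagens are the main structural proteins of the extracellular matrix, and their genes were followed here in whole cochleae of mice. The members were the entries of the deposited count table named as a collagen alpha chain (Col, a type number, the letter a and a chain number) with at least 240 counts summed over all libraries. This rule took 44 of 23420 entries, with summed counts from 760 for Col10a1 to 1249863 for Col1a2. All 44 passed the filter on low counts.

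The study compared 8 groups of 3 libraries from CBA/Sca mice aged 12 weeks. Surgery was either adrenalectomy (ADX), removal of the glands that secrete glucocorticoids, or a sham operation. The exposure was 1 h of noise (6 to 12 kHz, 100 dB SPL) or a sham exposure, starting at ZT3 (day) or ZT15 (night), where ZT counts hours from lights-on. The 8 groups were thus day sham exposure sham-operated, day sham exposure ADX, day noise sham-operated, day noise ADX, and the same 4 at night, so that every mouse had surgery and every control a sham exposure. The labels name no hormone replacement and do not say that the 3 libraries of a group came from separate animals, so the p-values measure the spread between these samples, which may be technical. The series text puts collection 2 h after the noise, while the labels give ZT11 and ZT23, and neither source settles the difference.

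A collagen molecule is a triple helix of 3 alpha chains, which may be copies of the same chain or products of different genes. Fibrillar collagens (types I, II, III, V, XI, XXIV and XXVII) form the rope-like fibrils of bone, cartilage and connective tissue, type IV forms the sheet of basement membranes, type VI forms beaded filaments around cells, and FACIT collagens such as type IX sit on the surface of fibrils. In the inner ear, types II, IX and XI build the tectorial membrane and spiral ligament matrix, and type I fills the bony capsule. Mutations of type II, IX, XI and IV chains are known causes of hearing loss.

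Each library held 18894996 to 36108962 counts, and the collagen genes took 0.583% to 1.17% of them, with a median of 0.799%. Markers of sensory and supporting cells, stria vascularis, spiral ligament fibrocytes, bone and blood-forming marrow were present in every group, so the libraries hold RNA of the whole organ with its bone. In such bulk samples, fewer cells of a type and less RNA per cell cannot be told apart. Pituitary transcripts summed to 9886 CPM (counts scaled to a common library total) in night noise ADX a, against 2.92 to 138 CPM in the other libraries. Cerebellar transcripts were highest in night noise sham-operated b and in day sham exposure sham-operated b. Results that move without these 3 libraries are given both ways.

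Fibrillar genes carried most of the collagen RNA. The 11 fibrillar members held 79.2% of collagen counts, the 9 FACIT members 8.28%, the 6 type IV members 4.78%, the 6 type VI members 3.49% and the 3 network members (types VIII and X) 2.11%. The 4 transmembrane, 2 multiplexin and 3 remaining members (types VII, XXVI and XXVIII) held 1.07%, 0.938% and 0.171%. The top 5 of the 44 genes held 67% of collagen counts.

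**Figure D1:**
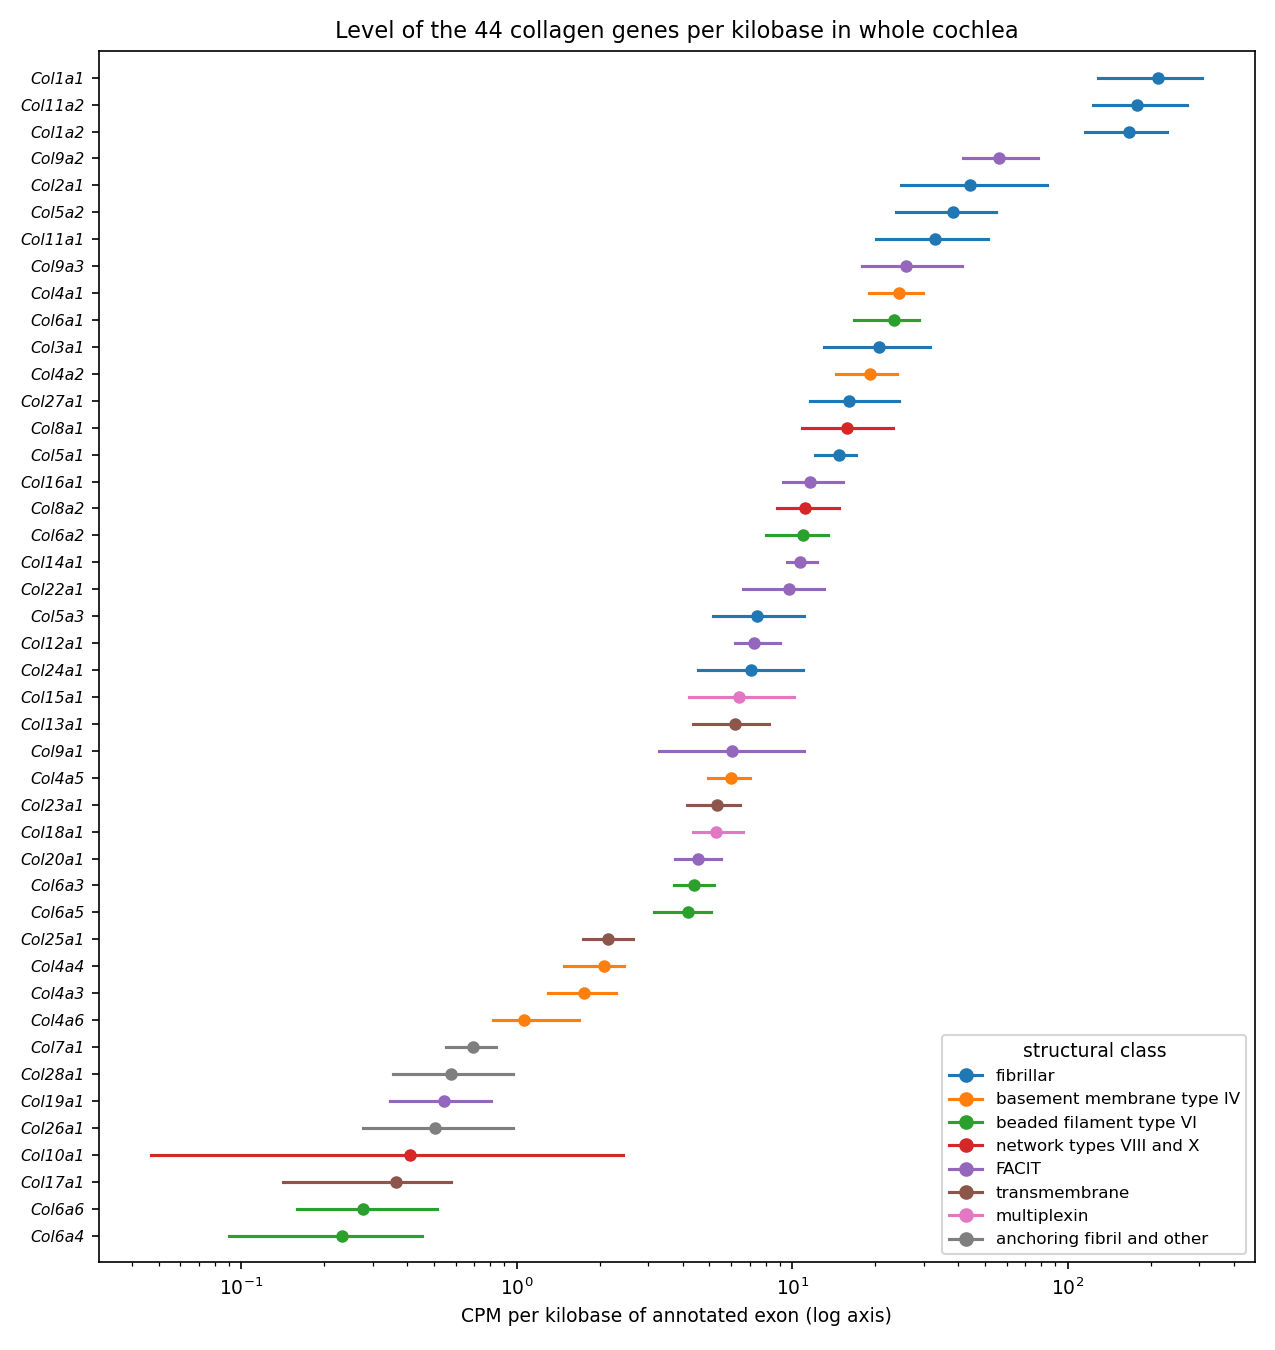
Level of each collagen gene in CPM per kilobase of annotated exon (log axis), with the mean as a point and the lowest to highest of 24 libraries as a line, coloured by structural class. Fibrillar genes occupy the top 3 ranks, and Col6a4 is lowest at a mean of 0.232 CPM per kilobase.

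Levels of different genes are compared per kilobase of annotated exon, as CPM per kilobase over the 24 libraries. Col1a1, a chain of the type I collagen of bone, had the highest level at 213 ± 45.6 (SD, n = 24). Col11a2, a chain of the type XI collagen of cartilage and tectorial membrane, followed at 178 ± 35.2, and Col1a2, the partner chain of Col1a1, at 166 ± 30.3. Col9a2, a type IX chain, stood at 56.4 ± 9.2 and Col2a1, the type II chain of cartilage, at 44.3 ± 17.1. At the low end stood Col26a1 (0.503 ± 0.204), Col10a1 (0.409 ± 0.505), Col17a1 (0.364 ± 0.132), Col6a6 (0.275 ± 0.0746) and Col6a4 (0.232 ± 0.0769). Of the 43 neighbouring pairs in this order, 34 did not differ by more than the larger of their SDs, which span all 8 groups. Within single libraries the order of such a pair could still be fixed. Col5a2 lay above Col11a1 in 24 of 24 libraries, whereas Col9a3 lay above Col4a1 in 14 of 24. The order depends on the length used, at the top and at the low end. Exon models of Col1a2 sum to 12426 bases while its longest transcript has 5348, and per kilobase of longest transcript Col1a2 stood at 386 and Col1a1 at 235.5. At the low end Col26a1 stood at 1.48 on that length, above Col19a1 (0.686) and Col28a1 (0.671).

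Within the other classes, the highest members per kilobase were Col4a1 in type IV (24.4 ± 3.33), Col6a1 in type VI (23.4 ± 3.47), Col8a1 in the network types (15.8 ± 3.41) and Col15a1 among the multiplexins (6.39 ± 1.68). Col13a1 led the transmembrane members (6.17 ± 1.04) and Col7a1, the anchoring fibril chain of skin, led the remaining 3 at 0.694 ± 0.0859. Per kilobase of longest transcript Col26a1 led those 3 instead, at 1.48 against 0.772 for Col7a1. Col4a3, Col4a4 and Col4a5, the type IV chains mutated in Alport syndrome, measured 1.75 ± 0.235, 2.07 ± 0.248 and 5.98 ± 0.588. Collagen genes varied more between libraries of the same group than most genes. The pooled within-group SD on the log2 scale had a median of 0.205 over the 44 members, against 0.123 over the 15267 genes at or above the lowest member's level. It ran from 0.0965 in Col14a1 to 1.36 in Col10a1, the collagen of hypertrophic cartilage.

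Chains that assemble into the same molecule differed in how fixed their ratio was. The ratio of Col4a1 to Col4a2 per kilobase was 1.28 ± 0.0388 (SD, n = 24 libraries), a coefficient of variation of 3.03%. These genes lie head to head on chromosome 8 (GRCm38; Col4a1 at 11198423 to 11312826 on the minus strand, Col4a2 at 11312805 to 11449287 on the plus strand), and the annotated genes overlap by 22 bases. Col6a1 to Col6a2, which lie 85161 bases apart on the same strand of chromosome 10, had a ratio of 2.15 ± 0.108 (5.01%). Col1a1 to Col1a2, on different chromosomes, varied by 7.49%. The size of a ratio depends on the gene length used, while its coefficient of variation does not. Per kilobase of longest transcript Col6a1 to Col6a2 was 1.36, and Col1a1 to Col1a2 was 0.607 against 1.27 per kilobase of exon. The 2 other head-to-head pairs had looser ratios, Col4a3 to Col4a4 with 71 bases between the genes (11.3%) and Col4a5 to Col4a6 with 1308 bases (13.3%). These pairs had fewer counts per library, 303 to 751 for Col4a3 and 159 to 344 for Col4a6, against at least 2416 for Col4a1 and Col4a2. The part of low counts in the looser ratios was not tested. The loosest of the 12 chain pairs was Col9a1 to Col9a2 of type IX, at 0.105 ± 0.0249 (23.6%). It ran from 0.0804 ± 0.00162 in night noise sham-operated libraries to 0.146 ± 0.00886 in day sham exposure ADX libraries (SD, n = 3 each).

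**Figure D2:**
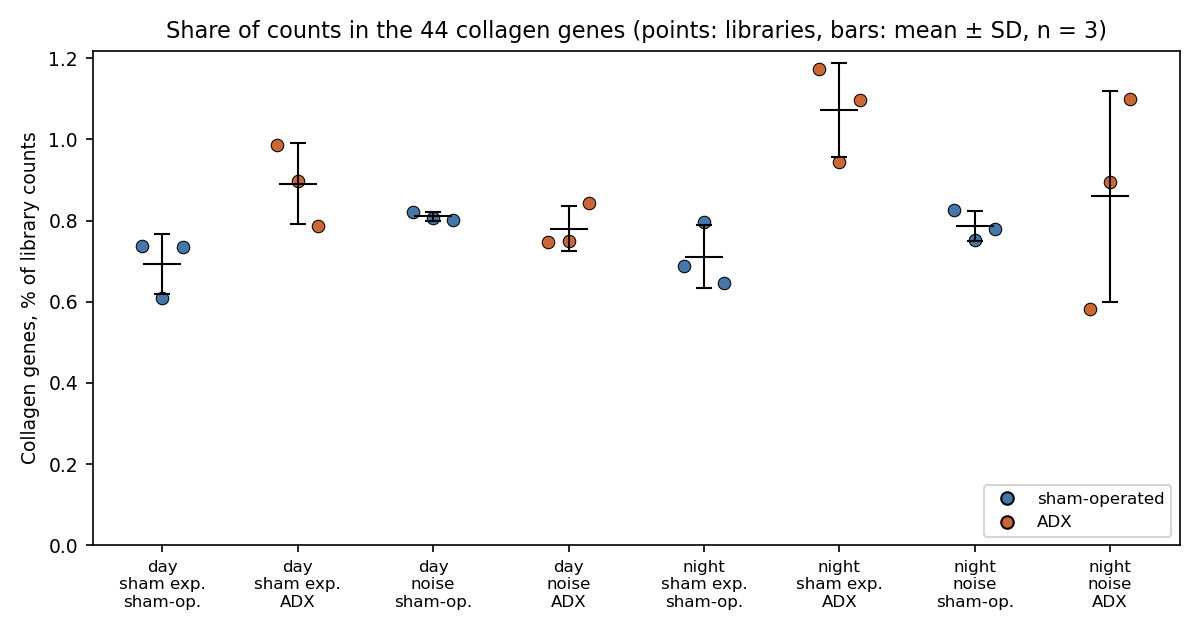
Share of all counts that fell in the 44 collagen genes, in percent, for each library (points) of the 8 groups, with mean ± SD as bars (n = 3). Under sham exposure every ADX library lies above every sham-operated library of the same period, and night noise ADX a is the lowest of all at 0.583%.

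The first question was how removal of the adrenals bore on collagen RNA. Pooled over noise and period, Col2a1, Col4a1, Col4a2, Col26a1 and Col27a1 rose with ADX, and the other 39 members were not called. In sham exposure libraries the collagen share was 0.981% ± 0.139 after ADX and 0.703% ± 0.0685 after sham operation (SD, n = 6 each). In noise-exposed libraries it was 0.82% ± 0.174 and 0.798% ± 0.0276 (SD, n = 6 each), so the groups overlapped there. By day the noise libraries ran from 0.747% to 0.844% with ADX and from 0.802% to 0.822% without. At night the overlap rested on night noise ADX a (0.583%), the library with pituitary transcripts. Night noise ADX b and c (0.896% and 1.1%) lay above the sham-operated libraries (0.754% to 0.826%).

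Pooled over noise and period, 5 of 44 members passed the threshold in edgeR (adjusted p under 0.05), all of them higher in ADX, where 3.2% of all genes tested passed, 1.68% of all genes in that direction. Unadjusted p was under 0.05 in 22 members, all higher, against 16.9% of all genes. Of the 44, 39 had a positive log2 change, and the median was 0.17 against -0.000144 over all genes. All 11 fibrillar members were positive with a median of 0.27, while the 6 type IV members had a median of 0.04, with only Col4a1 and Col4a2 of them called. The 3 network members had a median of 0.19 and the 6 type VI members of 0.11, with 0 called in both. Without night noise ADX a, 18 members passed, all higher, and 14 passed without the 3 libraries with pituitary or cerebellar transcripts. The shares of all genes above belong to the fit with all 24 libraries, and those of the reduced fits are not given here.

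The widest comparison was ADX against sham operation at night under sham exposure. Here 6 members rose: Col2a1, Col4a1, Col4a2, Col11a2, Col26a1 and Col27a1, where 1.58% of all genes passed in edgeR and 1.11% were higher. At unadjusted p under 0.05 there were 25 members, all higher, against 14.9% of all genes. In 27 members the 3 ADX libraries all lay above the 3 sham-operated ones and in 2 (Col7a1 and Col19a1) all below, where 22.3% of all genes did not overlap, 11.4% higher and 10.9% lower. The median log2 change was 0.41 over the members and -0.000972 over all genes, and 0.64 over the 11 fibrillar members.

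Col2a1, the type II chain, measured 779, 455 and 757 CPM in night sham exposure ADX a, b and c. It measured 277, 320.1 and 234 in the sham-operated libraries of the same time and exposure. All 3 ADX values were higher, with b well below the other ADX libraries, and the log2 change was 1.26 (SE 0.26, 2.4-fold, adjusted p = 0.0232, edgeR). Col11a2, whose chain co-assembles with the type II product in cartilage fibrils, measured 1865, 1501.5 and 1715 against 1104, 1241 and 1040 CPM. Again the groups did not overlap, and the log2 change was 0.59 (SE 0.14, adjusted p = 0.0356, edgeR).

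Col27a1, a fibrillar chain of developing cartilage, gave 318, 221 and 299.9 CPM with ADX and 164, 184 and 189 without (log2 change 0.64, SE 0.15, adjusted p = 0.0398, edgeR). Col26a1 was rare, at 6.05, 4.53 and 7.91 CPM against 2.53, 2.86 and 2.74. Its log2 change of 1.19 (SE 0.28, 2.28-fold, adjusted p = 0.0338, edgeR) came from 3 ADX libraries that all lay above all 3 sham-operated ones. By day under sham exposure its difference was as large, with 7.19, 6.8 and 5.02 CPM against 2.26, 2.33 and 3.01 and a log2 change of 1.31 (SE 0.28), yet the adjusted p was 0.079 (edgeR), and no call was made.

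The type IV pair moved almost alike. Col4a1, which with Col4a2 forms the common basement membrane network of vessels and epithelia, measured 209, 181 and 213 CPM with ADX and 143, 141 and 146 CPM without. Col4a2 measured 151, 127 and 145 and 100.4, 95.6 and 102 CPM. Neither gene's groups overlapped, and the sham-operated values sat within a few CPM of each other. The log2 changes were 0.49 (SE 0.1) and 0.51 (SE 0.11), with adjusted p = 0.0222 and 0.0245 in edgeR. The other type IV genes gave log2 changes of 0.04 to 0.2 there and were not called.

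**Figure D3:**
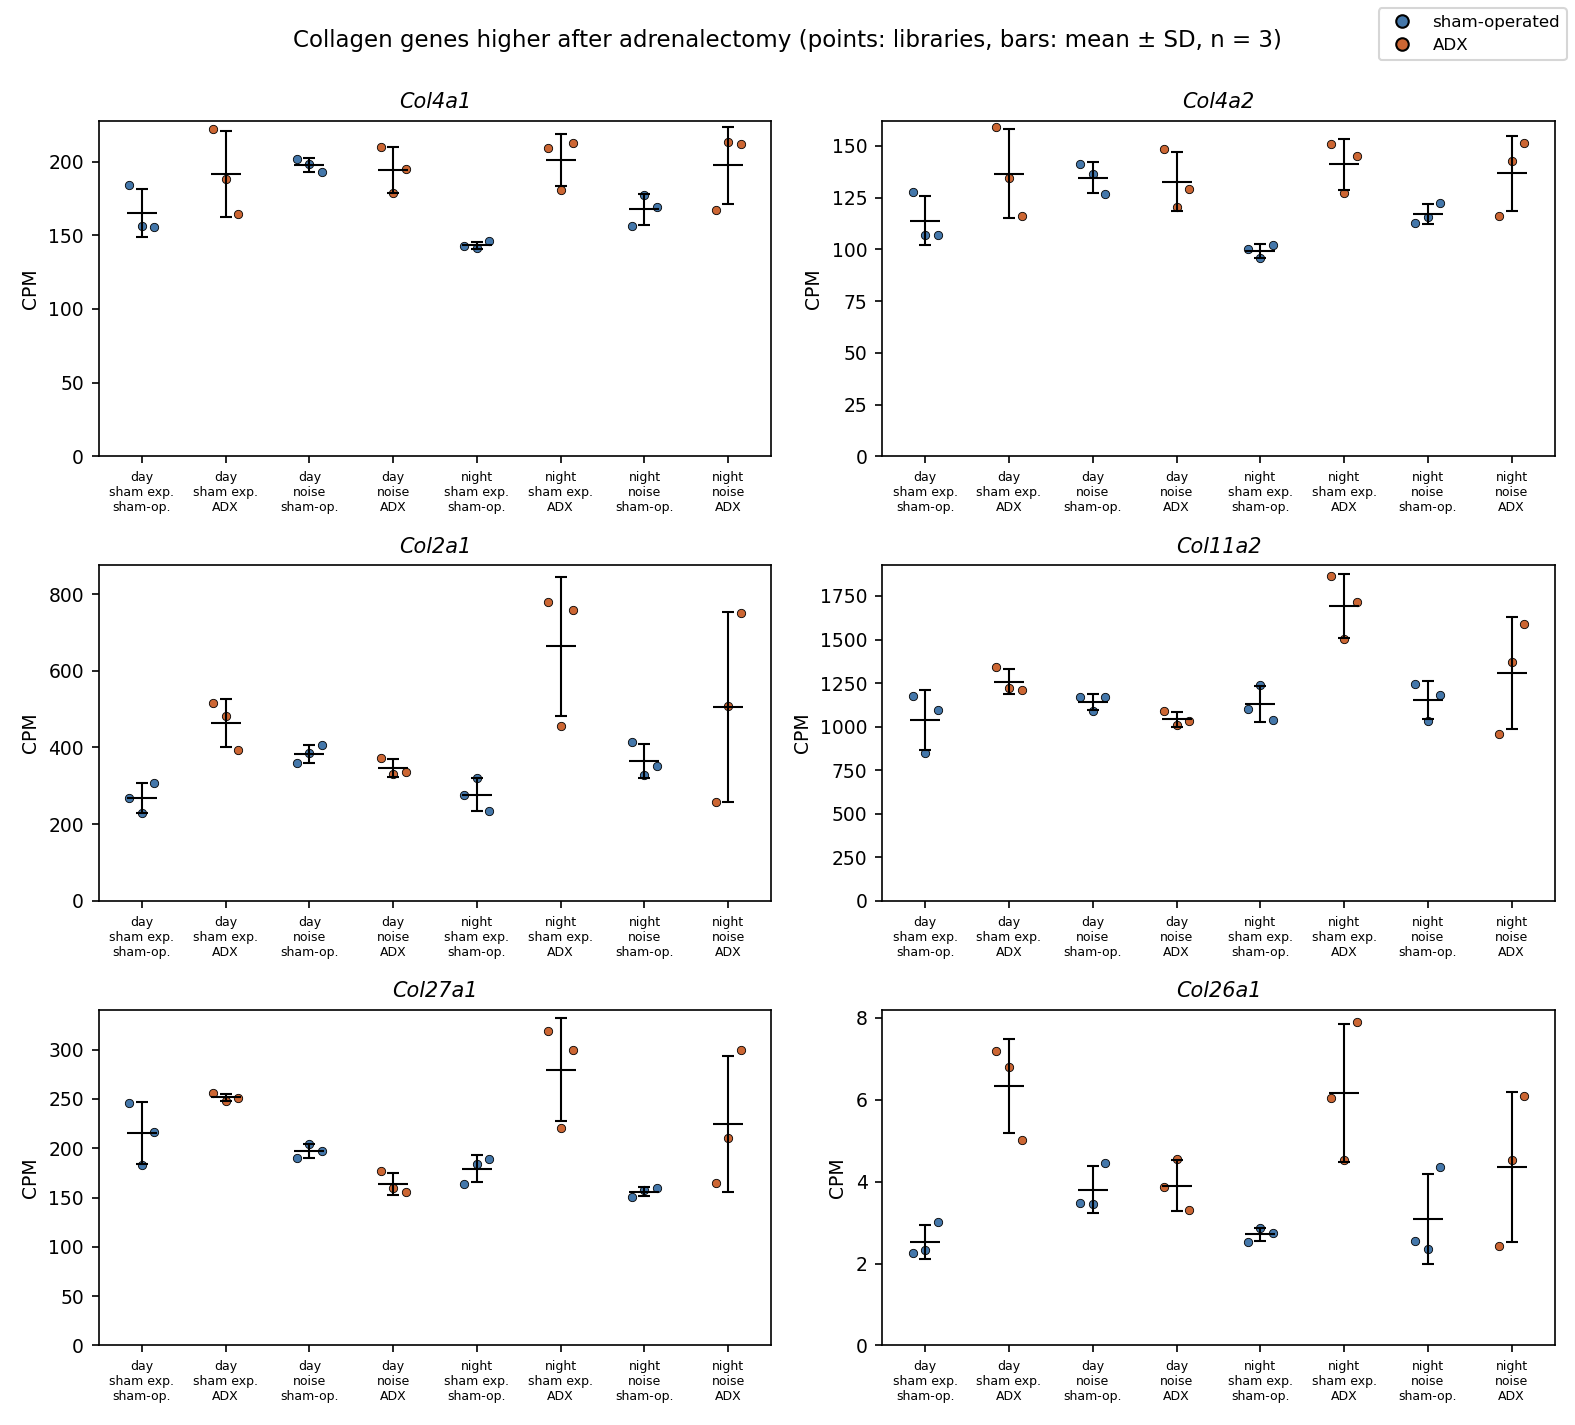
Level in CPM of the 6 collagen genes called for ADX at night under sham exposure, for each library (points) of the 8 groups with mean ± SD (n = 3). In the night sham exposure pair every ADX library lies above every sham-operated one, and night noise ADX a is the lowest ADX library of Col2a1 at 257 CPM.

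These calls rest on few libraries. The 6 calls at night under sham exposure were lost when night sham exposure ADX a or c, or any of night sham exposure sham-operated a, b and c, was left out, and all 6 stood without night sham exposure ADX b. No log2 change reversed. In the same pair of groups DESeq2 called 16 members and limma voom 18, and edgeR called 17 when the 3 libraries with pituitary or cerebellar transcripts, none of them in these groups, were left out of the fit. The share of all genes called in these other fits is not given here, so those counts have no background to be read against. In the pooled comparison Col26a1 (log2 change 0.76, SE 0.14, adjusted p = 0.00538), Col2a1 (0.59, SE 0.13, adjusted p = 0.016), Col4a2 (0.24, SE 0.05, adjusted p = 0.016) and Col4a1 (0.23, SE 0.05, adjusted p = 0.0164) passed in edgeR with any of the 24 libraries left out. Col27a1 (0.28, SE 0.08, adjusted p = 0.0496, edgeR) passed in 3 of the 24 such fits.

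Over the 12 ADX libraries Col26a1 ran from 2.44 to 7.91 CPM with a median of 4.78, and over the 12 sham-operated ones from 2.26 to 4.47 with a median of 2.8. Col2a1 ran from 257 to 779 (median 469) against 229 to 413 (median 324), Col4a1 from 164 to 222 (median 202) against 141 to 202 (median 163), and Col4a2 from 116 to 159 (median 139) against 95.6 to 141 (median 114). Col27a1 ran from 156 to 318 (median 234.5) against 151 to 246 (median 187). The ranges of the pooled sets overlapped for all 5 genes.

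By day under sham exposure 0 members were called in edgeR, where 0.0422% of all genes passed. DESeq2 called 2 (Col26a1 and Col15a1), limma voom called 1 (Col26a1), edgeR called 1 (Col26a1) without the 3 libraries, and 9 members had an unadjusted p under 0.05, all higher, against 11.3% of all genes. Col15a1, a basement membrane zone collagen, and Col3a1, the type III chain of loose connective tissue, gave log2 changes of 0.7 (SE 0.21) and 0.73 (SE 0.23). Col3a1 measured 309.8, 262 and 175 CPM with ADX against 159.5, 141 and 149 without. All 11 fibrillar members were positive here too, with a median of 0.38.

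Among noise-exposed libraries 0 members were called for ADX by edgeR, DESeq2 or limma voom, by day or at night, and edgeR called 0% of all genes in both. At an unadjusted p under 0.05 there were 2 members by day (11.7% of all genes) and 5 at night (8.55%). By day 29 of the 44 members were lower with ADX, with a median log2 change of -0.11, and at night 31 were higher, with a median of 0.09. By day the smallest p belonged to Col6a3 (log2 change 0.21, SE 0.09), Col4a5 (-0.24, SE 0.1) and Col9a2 (-0.25, SE 0.13). At night it belonged to Col27a1 (0.53, SE 0.15), Col16a1 (0.28, SE 0.12) and Col4a1 (0.24, SE 0.1), and without night noise ADX a 3 members passed (Col27a1, Col24a1 and Col16a1).

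Markers of other cells moved beside these differences, and their part in them was not tested. In night sham exposure libraries the cartilage list summed to 402 to 476 CPM with ADX and 374 to 404 without, and 0 of its 6 tested genes were called. The osteoblast list summed to 3617 to 3934 against 3698 to 4129 CPM, with 8 of 10 genes positive, a median log2 change of 0.45 and 0 called. The fibroblast list summed to 1654 to 1790 against 1544 to 1720 CPM with 6 of 8 positive, and Gsn, an actin-severing protein, fell. All 9 markers of sensory and supporting cells were negative and summed to 415 to 495 against 492 to 608 CPM. Tectb, a tectorial membrane protein, fell by 1.18 on the log2 scale. All 8 neutrophil and marrow markers were negative (6509 to 7670 against 7403 to 9434 CPM). All 8 osteoclast markers were negative (530.2 to 650 against 636 to 799 CPM, 0 called), and so were all 6 tested erythroid markers (2564 to 3690 against 2967 to 4052 CPM, 0 called), with Hba-a1 and Hba-a2 at 0 in both groups. The 8 skeletal muscle markers were all negative as well (9.46 to 14.1 against 9.11 to 39.8 CPM, 0 called). No gene of the other 7 lists was at 0 in these groups.

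The promoters of Col11a2 and Col27a1 are shown because these genes were called together and had RefSeq promoter windows (GRCm38.p6) with bases outside annotated exons. Col4a1 and Col4a2, called beside them, had windows too, but no base before the start lay outside an annotated exon. They are the 250 bases before the start, 5′ to 3′ on the plus strand, at chr17:34038888-34039137 and chr4:63215162-63215411. The RefSeq start of Col27a1 lies inside the longer GENCODE gene, and that of Col11a2 lies upstream of its GENCODE gene, which starts at 34039437. Capitals mark GC boxes (GGGCGG or CCGCCC, bound by Sp factors) and the TATA box (TATAAA).
Col11a2: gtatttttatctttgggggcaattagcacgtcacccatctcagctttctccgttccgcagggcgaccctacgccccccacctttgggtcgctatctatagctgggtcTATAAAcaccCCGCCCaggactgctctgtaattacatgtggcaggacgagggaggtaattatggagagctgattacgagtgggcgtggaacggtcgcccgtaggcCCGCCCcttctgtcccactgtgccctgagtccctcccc
Col27a1: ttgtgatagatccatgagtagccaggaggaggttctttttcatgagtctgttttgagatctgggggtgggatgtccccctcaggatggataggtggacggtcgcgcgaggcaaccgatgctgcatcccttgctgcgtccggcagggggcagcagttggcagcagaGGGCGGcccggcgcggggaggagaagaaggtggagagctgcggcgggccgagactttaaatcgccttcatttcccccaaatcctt
The Col11a2 stretch held 1 TATA box and 2 GC boxes, and the Col27a1 stretch held 1 GC box and no TATA box.

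The second question was what noise did to collagen RNA. Pooled over period and surgery, 2 of 44 members fell in edgeR, Col9a1 and Col27a1, where 4.81% of all genes passed and 2.4% fell. In 8 members the unadjusted p was under 0.05, against 18.7% of all genes. At both thresholds, members passed in either direction about as often as all genes did. The members split into 17 positive and 27 negative changes with a median log2 change of -0.03, and 7 of the 9 FACIT members were negative. Beside them, 6 of 6 stress-response genes (Fos, Fosl1, Atf3, Gem, Gdf15 and Ccl2) rose in the same libraries, with a median log2 change of 3.12. These genes were chosen with earlier results of these data known, so their rise is no test.

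Col9a1, a chain of the type IX collagen that links to type II fibrils (chromosome 1, 24177610 to 24252684), fell by 0.51 on the log2 scale (SE 0.13, adjusted p = 0.0212, edgeR). Its 12 noise libraries ran from 16.6 to 45.2 CPM with a median of 24.9, and the 12 sham exposure libraries from 22.6 to 56 with a median of 35.7. Col27a1 (chromosome 4, 63214004 to 63334991) fell by 0.31 (SE 0.08, adjusted p = 0.0199, edgeR), from 164 to 318 CPM (median 233) to 151 to 299.9 (median 171). The ranges overlapped for both genes, and night noise ADX c was the highest noise library of each. Markers of other cells moved in the same comparison, and their part was not tested. Of 6 spiral ligament fibrocyte markers 5 were negative and 4 fell, Gjb6 (-0.29, SE 0.05), Pou3f4 (-0.26, SE 0.06), Gjb2 (-0.26, SE 0.06) and Slc4a11 (-0.35, SE 0.09), with sums of 4928 to 6834 CPM after noise and 4932 to 7934 after sham exposure. Of 8 fibroblast markers only Pdgfra was called, lower (-0.13, SE 0.04, sums 1432 to 1860 against 1471 to 1901 CPM). The cartilage list summed to 303 to 429 against 324 to 476 CPM, and none of its 6 tested genes was called. Of 10 osteoblast markers only Dmp1 (0.34, SE 0.06) and Spp1 (0.28, SE 0.07) were called, both higher (3676 to 4838 against 3092 to 4129 CPM). Group means of Sp7, Ibsp and Alpl were lower after noise in the ADX pairs and higher in the sham-operated pairs. Of 8 osteoclast markers, all positive, Ocstamp rose (473 to 840 against 402 to 799 CPM). Both collagen calls stood with any of the 24 libraries left out, and the counts ran from 2 to 5 called members over those fits, with 5 without day noise ADX a.

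By day in ADX mice Col9a1 and Col27a1 were again called lower after noise. Col9a1 measured 25.6, 19.4 and 16.6 CPM in day noise ADX libraries and 47.8, 42.6 and 41.9 CPM in day sham exposure ADX libraries, a log2 change of -1.1 (SE 0.25, 2.15-fold lower, adjusted p = 0.0198, edgeR). Col27a1 measured 177, 159 and 156 and 255.5, 248 and 251 CPM, a log2 change of -0.62 (SE 0.15, 1.53-fold lower, adjusted p = 0.0313, edgeR). In both genes every noise library lay below every sham exposure library. These were the 2 members called, where 4.02% of all genes passed and 2.01% fell. In 12 members, all lower, the unadjusted p was under 0.05, against 23.5% of all genes, and 32 of 44 were negative with a median of -0.21. Taken in either direction, passes at both thresholds were about as frequent among members as among all genes. Libraries did not overlap in 16 members that were lower and 2 that were higher, against 25.8% of all genes, 13.7% lower and 12.2% higher. The counts ran from 0 to 6 when a library was left out: of the day noise ADX libraries, 6 without a and 0 without b or c, and, of the day sham exposure ADX libraries, 1 without b and 0 without a or c.

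Other cells' markers differed in this pair of groups as well. The neutrophil list summed to 6727 to 12486 CPM with noise and 6001 to 8200 without, with 8 of 8 genes positive (median log2 change 0.33, 0 called). The 6 tested erythroid markers were all positive (median 0.49, 1 called), at 3944 to 4437 against 2663 to 3299 CPM, and Hba-a1 was at 0 in the noise group and Hba-a2 in the sham exposure group. The 8 osteoclast markers were all positive, 522 to 840 against 402 to 534 CPM, and Acp5 and Calcr rose. The osteoblast list summed to 3730 to 4838 against 3112 to 3181 CPM, without overlap, with 6 of 10 positive, and Dmp1 (0.68, SE 0.12) and Spp1 (0.61, SE 0.14) rose. The list of sensory and supporting cells summed to 309.5 to 417 against 485 to 559 CPM, also without overlap, with 8 of 9 negative, and Otogl, a tectorial membrane protein gene, fell by 0.52 (SE 0.14). Of 6 spiral ligament markers 5 were negative and Pou3f4 fell by 0.44 (SE 0.12; 4928 to 6826 against 5101 to 6284 CPM). Among 8 fibroblast markers, 6 of them negative, Pdgfra fell by 0.26 (SE 0.07) and Gsn rose by 0.37 (SE 0.09; 1432 to 1756 against 1659 to 1901 CPM). The cartilage list summed to 303 to 411 against 392 to 401 CPM, with overlap and none called. Its Acan had means of 69.8 and 104 CPM. Means of Comp and Ucma were higher with noise, and those of the other cartilage genes lower. The 8 skeletal muscle markers were all negative (9.8 to 17 against 11.2 to 86.6 CPM, 0 called). The part of these cells in the collagen changes was not tested.

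In sham-operated mice 0 members were called after noise by day (0.247% of all genes, edgeR) or at night (0.717%). DESeq2 and limma voom called 0 by day and 1 at night, Col19a1. Unadjusted p was under 0.05 in 5 members by day, all higher (8.31% of all genes), and in 4 at night (8.41%). By day Col4a1, Col4a2 and Col15a1 had the smallest p, with log2 changes of 0.26 (SE 0.1), 0.24 (SE 0.11) and 0.46 (SE 0.21), and 32 of 44 members were positive. At night Col19a1, a minor FACIT chain, gave 3.58, 2.92 and 2.57 CPM with noise and 4.68, 5.52 and 4.96 without. These groups did not overlap, at a log2 change of -0.74 (SE 0.18, adjusted p = 0.0547, edgeR), and the call was made without night noise sham-operated a. The share of all genes without overlap in that pair is not given here. Col4a1 (0.23, SE 0.1) and Col4a2 (0.24, SE 0.11) came next.

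At night in ADX mice 0 members were called by edgeR (0.5% of all genes), DESeq2 or limma voom. Unadjusted p was under 0.05 in 6, all lower, against 10.2% of all genes, and 37 of 44 were negative with a median of -0.17. Col11a2, Col5a3 and Col8a2 had the smallest p, at log2 changes of -0.38 (SE 0.14), -0.52 (SE 0.19) and -0.36 (SE 0.13), and Col27a1 passed without night noise ADX c. The noise and ADX comparisons share the sham exposure ADX libraries, so a high value there gives both a positive ADX and a negative noise change.

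**Figure D4:**
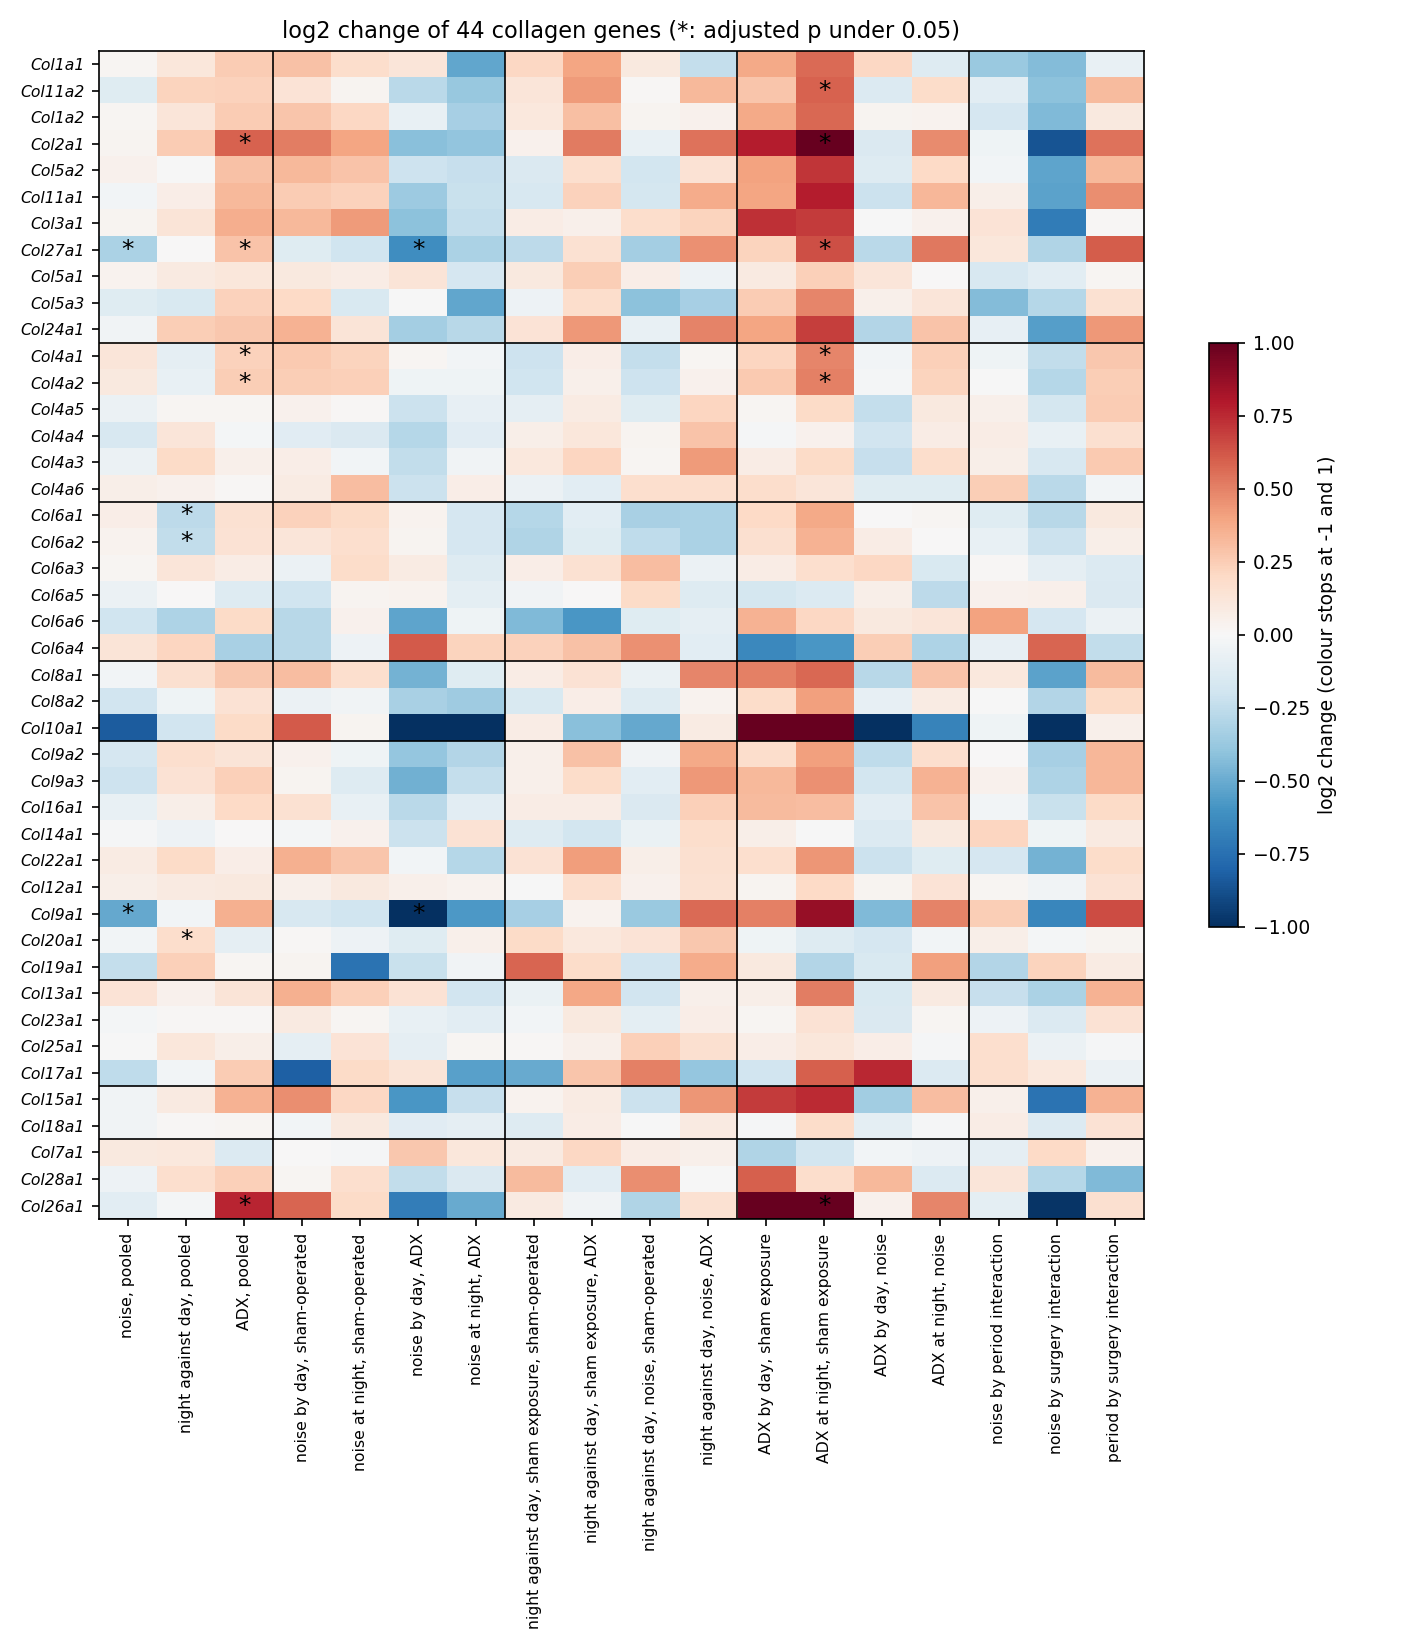
Log2 change (colour, stopping at -1 and 1) of each of the 44 collagen genes in 18 comparisons, with genes grouped by structural class and a star where the adjusted p was under 0.05 in edgeR. The column for ADX at night under sham exposure is positive in 38 of 44 genes with 6 stars, and the noise by surgery column is negative in 39 of 44 with 0 stars.

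The noise by surgery interaction, the difference between the noise effects in ADX and sham-operated mice over both periods, was negative in 39 of 44 members with a median of -0.28 against -0.0019 over all genes. No member was called in edgeR (0% of all genes) or limma voom, and DESeq2 called Col15a1. Unadjusted p was under 0.05 in 19 members, all negative, against 8.48% of all genes. All 11 fibrillar and all 6 type IV members were negative. Col15a1 (-0.74, SE 0.2), Col26a1 (-0.98, SE 0.28) and Col2a1 (-0.86, SE 0.26) had the smallest p, with adjusted p = 0.263, 0.271 and 0.313 in edgeR.

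Col2a1 shows the pattern in its 4 means: under sham exposure 564 ± 163 CPM with ADX and 273 ± 37.1 without, and after noise 426 ± 179.5 and 374 ± 33.5 (SD, n = 6 each). Col15a1 measured 51.7 ± 7.52 and 31.4 ± 3.07 CPM under sham exposure, and 39.5 ± 13.8 and 39.7 ± 3.87 after noise. Under sham exposure the ADX and sham-operated libraries of both genes did not overlap, and after noise, with day and night together, they did. After day noise Col15a1 was lower with ADX without overlap (30.3 to 37.2 against 39.6 to 45.6 CPM), while Col2a1 overlapped. In both genes night noise ADX b and c lay above all 3 night noise sham-operated libraries, and ADX a, with pituitary transcripts, below them. Both genes were picked by their small p, and the share of all genes without overlap is not given here. By day alone the interaction was negative in 38 members, with 0 called in edgeR (0% of all genes), 1 in DESeq2 (Col15a1) and 0 in limma voom, and Col8a1 called in edgeR without day noise ADX a. Unadjusted p was under 0.05 in 11 against 16.4% of all genes, with Col15a1 (-1.05, SE 0.29), Col26a1 (-1.27, SE 0.4) and Col8a1 (-0.78, SE 0.25) at the smallest p.

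Col9a1 is shown from the promoter table because it had the largest called fall. The stretch is chr1:24177360-24177609 on the plus strand, the 250 bases before the first of its 2 RefSeq starts, and capitals mark a single hexamer of the glucocorticoid receptor site (AGAACA, here as its reverse complement TGTTCT).
Col9a1: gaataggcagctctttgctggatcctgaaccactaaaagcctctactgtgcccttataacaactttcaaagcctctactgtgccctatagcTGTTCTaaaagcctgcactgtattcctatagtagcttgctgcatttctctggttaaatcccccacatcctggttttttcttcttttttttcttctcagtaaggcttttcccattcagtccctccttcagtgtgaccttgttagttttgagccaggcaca
That hexamer was the only match to any of the motifs searched in this stretch.

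The third question was whether collagen RNA differed between night and day. Pooled over noise and surgery, Col6a1 and Col6a2 were lower at night and Col20a1 was higher, where 6.01% of all genes passed in edgeR, 3.76% higher and 2.25% lower. With 3 of 44 members called in either direction, calls were about as frequent among members as among all genes. In 12 members the unadjusted p was under 0.05, against 21.3% of all genes, and 31 of 44 were positive with a median log2 change of 0.08. The 2 falls were both in type VI, the class of beaded filaments around cells, whose other 4 genes gave log2 changes from -0.31 to 0.22 and were not called. Beside them, osteoblast markers Mepe (0.27, SE 0.06) and Alpl (0.22, SE 0.06) rose, with 7 of 10 positive and sums of 3617 to 4531 CPM at night and 3092 to 4838 by day. Osteoclast markers Ctsk (0.5, SE 0.09) and Dcstamp (0.44, SE 0.12) rose, with 8 of 8 positive (473 to 799 against 402 to 840 CPM). Of 8 strial markers, 6 of them negative, Kcne1 fell by 0.19 (SE 0.05) and Esrrb rose by 0.16 (SE 0.05; 2546 to 3235 against 2699 to 3565 CPM). The part of these cells was not tested.

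Col6a1, a core chain of type VI (chromosome 10, 76708792 to 76726168), ran from 73 to 113 CPM at night with a median of 91.5, and from 96.4 to 126 by day with a median of 113 (12 libraries each). The ranges overlapped, and the log2 change was -0.26 (SE 0.06, adjusted p = 0.0114, edgeR), called with any library left out. Col6a2, its partner chain, ran from 66.8 to 102 CPM at night (median 81) and 84.9 to 112 by day (median 99.4), with a log2 change of -0.25 (SE 0.07, adjusted p = 0.0335, edgeR). Col20a1, a little studied FACIT chain, ran from 21.5 to 28.4 CPM at night (median 25.4) and 19.3 to 25.7 by day (median 21.8), with a log2 change of 0.18 (SE 0.05, adjusted p = 0.0464, edgeR).

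**Figure D5:**
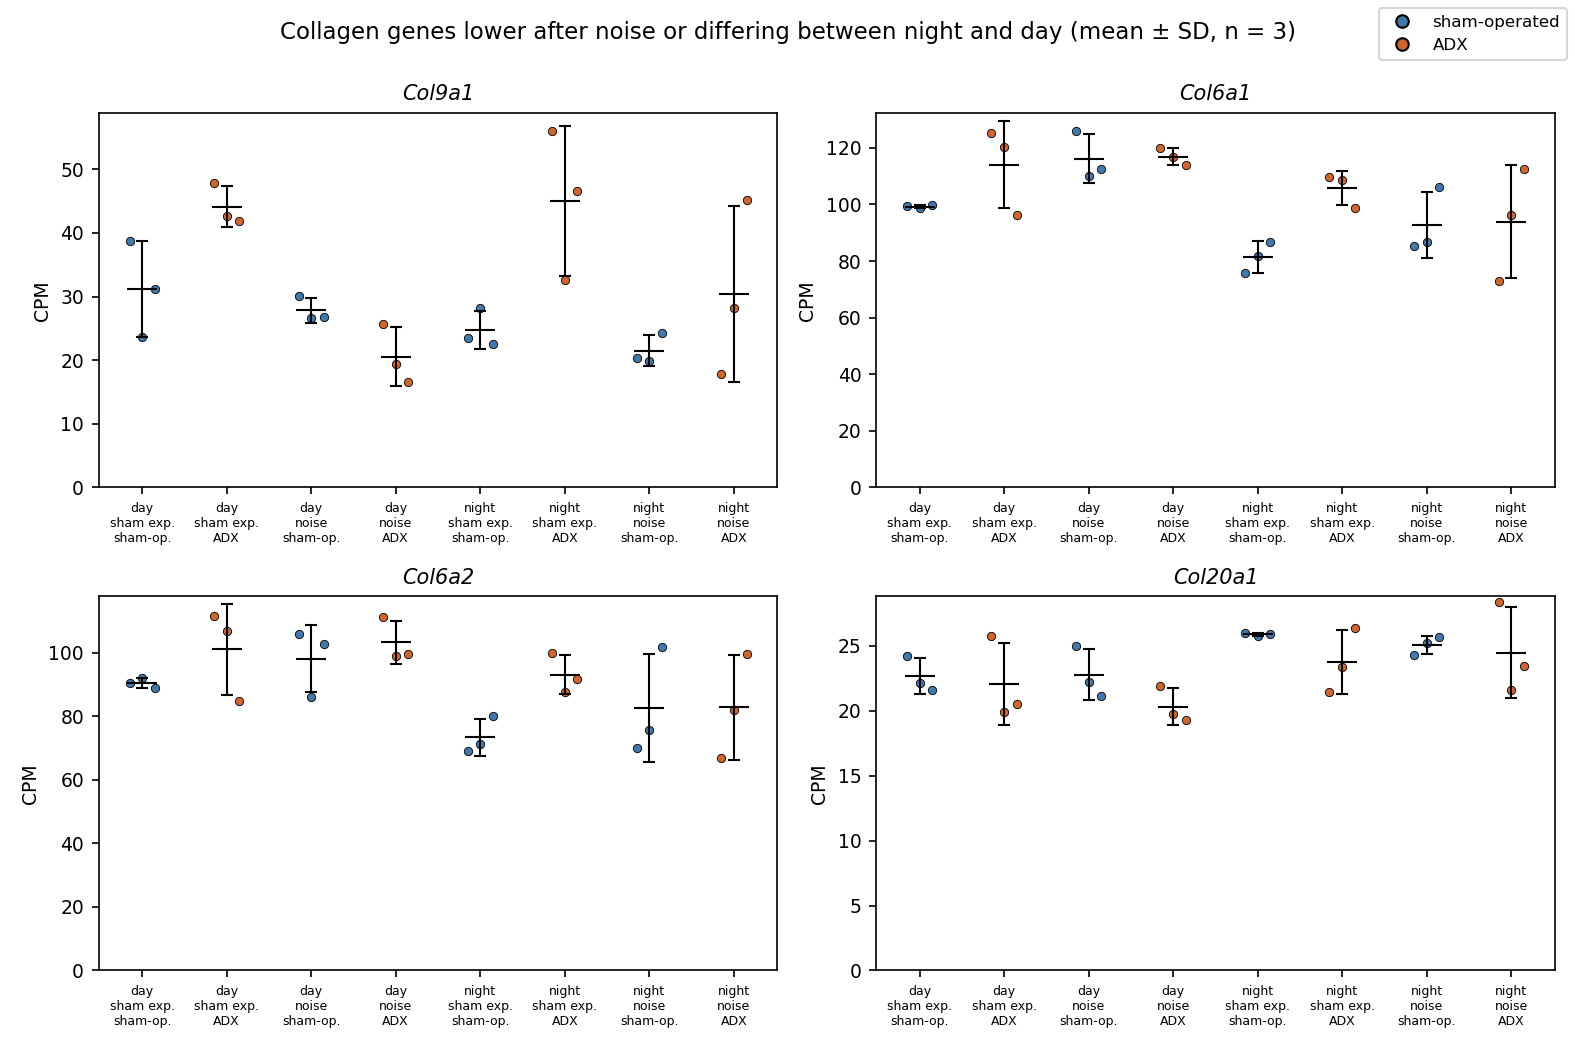
Level in CPM of Col9a1, Col6a1, Col6a2 and Col20a1 for each library (points) of the 8 groups, with mean ± SD (n = 3). Col9a1 has its lowest group mean in day noise ADX libraries, which lie at 16.6 to 25.6 CPM, and the 3 night sham exposure sham-operated libraries of Col6a1 all lie below the 3 day ones.

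Under sham exposure in sham-operated mice Col6a1 measured 75.9, 81.6 and 86.8 CPM at night and 99.4, 98.8 and 99.7 by day, and Col6a2 69, 71.2 and 80 and 90.7, 92.1 and 88.8. Every night value lay below every day value, in genes already picked by their pooled call. The share of all genes without overlap in this pair is not given here, so the separation has no background to be read against. Within this pair of groups no member passed (0.265% of all genes, edgeR). Col19a1 (log2 change 0.58, SE 0.18), Col6a1 (-0.29, SE 0.12) and Col6a2 (-0.3, SE 0.14) had the smallest p of the 3 unadjusted ones under 0.05, against 11.2% of all genes. DESeq2 called 0 members and limma voom called Col19a1. In the pooled comparison Col20a1 passed in 7 and Col6a2 in 9 of the 24 fits that left out a library. Without the 3 libraries with pituitary or cerebellar transcripts Col6a2 (adjusted p = 0.128, edgeR) and Col20a1 (adjusted p = 0.163, edgeR) did not pass, while Col6a1, Col11a2, Col12a1, Col22a1 and Col24a1 did. With 1 library left out, the number called ran from 1 to 6: 6 without night noise ADX a, 5 without day sham exposure sham-operated a, and 1 without any of 8 other libraries (day noise sham-operated c, night noise sham-operated a or b, day sham exposure ADX b, day sham exposure sham-operated b or c, night sham exposure ADX c, night sham exposure sham-operated b).

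In the 3 other pairs of night and day 0 members were called in edgeR, and DESeq2 and limma voom called 0 in the ADX pairs. After sham exposure in ADX mice 8 had an unadjusted p under 0.05 (6.25% of all genes, 0.0181% called), led by Col11a2 (0.43, SE 0.14), Col5a1 (0.25, SE 0.08) and Col22a1 (0.41, SE 0.16). After noise in sham-operated mice there were 5 (15% of all genes, 1.12% called), led by Col6a3 (0.31, SE 0.09), Col6a1 (-0.33, SE 0.12) and Col4a1 (-0.24, SE 0.1). DESeq2 and limma voom called Col6a3 there, and edgeR did without night noise sham-operated a. After noise in ADX mice there were 15 (18.3% of all genes, 0.62% called), led by Col4a3 (0.43, SE 0.13), Col9a2 (0.38, SE 0.13) and Col27a1 (0.46, SE 0.15). Without night noise ADX a 9 members passed in that pair, 8 passed without the 3 libraries with pituitary or cerebellar transcripts, and 3 passed without day noise ADX a. The shares of all genes in these reduced fits are not given here.

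Of the remaining interactions, noise by period had 2 members with an unadjusted p under 0.05 (5.5% of all genes) and 0 called (0.00602% of all genes) by edgeR, DESeq2 or limma voom. Col14a1 (0.21, SE 0.08), Col5a3 (-0.43, SE 0.19) and Col5a1 (-0.16, SE 0.08) had the smallest p. Period by surgery had 10, all positive (6.67% of all genes), and 0 called (0% of all genes) by these 3 tools, with 35 of 44 positive. It was led by Col27a1 (0.61, SE 0.15, adjusted p = 0.375, edgeR), Col4a1 (0.27, SE 0.1) and Col9a2 (0.33, SE 0.13), and Col27a1 was called without night noise ADX a.

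Both genes of the type VI pair were called lower at night, and their promoter stretches from RefSeq are printed 5′ to 3′ on the minus strand. Col6a1 is chr10:76726169-76726294, bases 250 to 125 before its start, and Col6a2 is chr10:76623631-76623880, all 250 bases before the more upstream of its 2 starts. Capitals mark a GC box.
Col6a1: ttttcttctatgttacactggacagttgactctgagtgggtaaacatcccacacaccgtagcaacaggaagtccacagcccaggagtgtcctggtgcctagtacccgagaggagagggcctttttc
Col6a2: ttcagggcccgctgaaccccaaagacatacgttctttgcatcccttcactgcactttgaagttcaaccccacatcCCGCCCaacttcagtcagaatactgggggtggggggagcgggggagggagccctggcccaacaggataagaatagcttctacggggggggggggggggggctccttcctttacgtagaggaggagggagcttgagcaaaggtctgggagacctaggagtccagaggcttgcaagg
Neither stretch held the E-box CACGTG that clock factors bind, nor did any of the 38 collagen windows.

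Over all collagen genes, 35 of 44 matched a RefSeq promoter window, 38 windows of 300 bases (250 before and 50 after the start). Motifs were counted on both strands. The GC box GGGCGG was in 60.5% of collagen windows and in 35.7% of all 32851 windows, with a median GC content of 59.8% and 52.7%. CCAAT was in 34.2% and 37.4%, and TATAAA in 13.2% and 13.6%. The full glucocorticoid response element, AGAACA and TGTTCT with 3 bases between them, was in 0% of collagen windows and in 0.00913% of all windows. Its hexamer AGAACA alone, which is part of that element, was in 5.26% and 19%, and the SOX motif AACAAT in 2.63% and 10.7%. The windows of Col4a1 and Col4a2 overlap by 78 bases, and each held a CCAAT box, with 1 and 3 GC boxes. A match describes letters in the window and is not evidence of binding.

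Genes that make, cut and bind collagen were followed beside the chains. Of 34 genes of collagen processing, 11 rose and 2 fell at night against day, where 6.01% of all genes passed in edgeR. Serpinh1, the collagen chaperone of the endoplasmic reticulum, rose by a log2 change of 0.54 (SE 0.06, adjusted p = 5.91e-06, edgeR), Loxl1, a cross-linking lysyl oxidase, by 0.26 (SE 0.04), Plod3, a lysyl hydroxylase, by 0.18 (SE 0.03) and Loxl3 by 0.28 (SE 0.05). The median over the 34 was 0.07. With ADX pooled, 2 of the 34 rose, where 3.2% of all genes passed and 1.68% were higher: Glt25d1, a collagen galactosyltransferase (0.22, SE 0.04), and Pxdn, which cross-links type IV collagen (0.15, SE 0.04). At night under sham exposure Glt25d1 (0.47, SE 0.08) and Loxl2 (0.83, SE 0.16) rose and Adamts3, which trims type II procollagen, fell by 0.66 (SE 0.15). Noise raised Loxl4 (0.38, SE 0.06), pooled and by day in ADX mice.

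Of 19 tested genes of collagen breakdown, 4 rose and 1 fell at night against day, where 6.01% of all genes passed, 3.76% higher and 2.25% lower. Timp1, a metalloprotease inhibitor (0.54, SE 0.08), Ctsk, the osteoclast collagenase (0.5, SE 0.09), and Mrc2, a collagen uptake receptor (0.24, SE 0.05), rose, and the stromelysin Mmp3 fell by 1.31 (SE 0.2). Noise raised Mmp13, a collagenase (0.51, SE 0.14), and Timp3 (0.16, SE 0.04). With ADX pooled 1 of the 19 fell, Timp3 (-0.21, SE 0.04), where 3.2% of all genes passed, and at night under sham exposure Mmp3 (1.91, SE 0.44) and Mmp2, a gelatinase (0.58, SE 0.13), rose.

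Of 12 collagen receptor genes, 2 rose with noise, where 4.81% of all genes passed: the receptor kinase Ddr1 (0.21, SE 0.04) and the integrin subunit Itgb1 (0.1, SE 0.03). Itga11, the collagen-binding integrin chain of fibroblasts, rose at night (0.21, SE 0.05), and Sdc1, a syndecan, rose with ADX (0.23, SE 0.06). Of 29 tested matrix partners, 2 rose and 1 fell with ADX, where 3.2% of all genes passed and 1.68% were higher: the fibril-binding proteoglycan Dcn (0.39, SE 0.09), the basement membrane link Nid2 (0.25, SE 0.06) and Matn2 (-0.34, SE 0.09). Thbs1 rose with noise (0.26, SE 0.05) and Lama4 at night (0.16, SE 0.05). Among upstream regulators, Ctgf, a matrix-associated growth factor, rose with noise by a log2 change of 0.51 (SE 0.05, adjusted p = 9.12e-07, edgeR) and Smad3, which carries TGF-beta signals to the nucleus, by 0.28 (SE 0.04), while the receptor Tgfbr2 fell by 0.21 (SE 0.05). Tgfbr2 (0.19, SE 0.05) and Ltbp2 (0.26, SE 0.07) rose with ADX, and Creb3l1 (0.19, SE 0.04) and Ltbp1 (0.13, SE 0.03) at night.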

How the data were processed

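Messenger RNA of whole cochlea was measured in 24 libraries made with a stranded kit from 300 ng of RNA and read as single reads of 50 bases, per the labels' protocols. The deposited values are raw counts of reads per gene symbol, and the submitters' processing notes name TopHat2 2.0.11, HTSeq 0.6p1 and mm10. The strand setting of the counting is not given in the sources used here, so reads of Col4a1 and Col4a2, which overlap, and of Col9a3, Col10a1 and Col18a1, which each overlap a gene on the opposite strand, may not be separated.

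The members, gene lists and tests were chosen with earlier results of these data known. The counts went into edgeR 4.0.16 (R 4.3.3), where filterByExpr on the 8 groups left 16607 genes, TMM factors ran from 0.974 to 1.02, and a robust quasi-likelihood model with 1 coefficient per group gave 19 two-sided contrasts, each adjusted by Benjamini-Hochberg over all genes and called at an adjusted p under 0.05. Replicates varied by a common biological coefficient of 0.0991. The script was tested on simulated counts with known noise changes; changes with period or surgery were not simulated. CPM (from edgeR's cpm function) use the TMM-scaled library totals. Lengths and positions come from GENCODE vM21 (GRCm38) by symbol, promoter windows from RefSeq (GRCm38.p6). No 2 libraries of a group repeated each other (chi-square per gene 6.1 to 41.4 among genes with at least 20 summed counts). A spreadsheet had turned 27 names into dates (0.214% of counts), and these entries were kept. Named were all called members, the 3 smallest p where none was called, the highest member of each class, the 5 highest and 5 lowest levels, and up to 4 called genes per list. Alternatives were RLE factors, DESeq2 1.42.0, voom of limma 3.58.1 with library weights, no filter, a replicate block, leaving out each library, and leaving out 3 libraries. 1 result of the regulator list is not reported here.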

Additional observations from a re-analysis of the deposited data

How the results depend on the processing

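No direction reversed among the results recomputed. RLE factors, no filter and the replicate block moved no count of called collagen genes by over 1.5 times. Without the filter 3 calls were lost in edgeR: Col20a1 for night against day (adjusted p = 0.0556), Col27a1 for ADX pooled (adjusted p = 0.0652) and Col27a1 for ADX at night under sham exposure (adjusted p = 0.0516). Counts that moved follow as called members out of 44, and the cause was not tested. For these alternative fits the share of all genes called is not given, so no count here is set against it.

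For ADX pooled, 5 members became 14 without the 3 libraries with pituitary or cerebellar transcripts, 11 with DESeq2, 9 with limma voom and 4 to 18 when 1 library was left out (18 without night noise ADX a). For ADX at night under sham exposure, 6 became 17, 16 and 18, and 0 to 6 when 1 library was left out, although none of its own libraries is among the 3. For ADX by day under sham exposure, 0 became 1, 2 and 1. For ADX at night with noise, 0 became 0 to 3 when 1 library was left out. For noise pooled, 2 became 5 with limma voom and 2 to 5 when 1 library was left out. For noise by day in ADX mice, 2 became 4 with DESeq2 and 0 to 6 when 1 library was left out. For noise at night, 0 became 1 with DESeq2 and with limma voom in sham-operated mice, and 0 to 1 when 1 library was left out in either surgery. For night against day pooled, 3 became 5 without the 3 libraries, 8 with limma voom and 1 to 6 when 1 library was left out. In its 4 pairs, 0 became 1 with limma voom (sham exposure, sham-operated), 1 with DESeq2, 1 with limma voom and 0 to 1 when 1 library was left out (noise, sham-operated), and 8 without the 3 libraries and 0 to 9 when 1 library was left out (noise, ADX). For noise by surgery, 0 became 1 with DESeq2, over both periods and by day, and by day 0 to 1 when 1 library was left out. For period by surgery, 0 became 1 without the 3 libraries and 0 to 1 when 1 library was left out.

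The letters a, b and c were tried as a replicate block. Same-letter libraries of different groups had correlations of their deviations from -0.271 to 0.41 (84 pairs, median 0.0162), of which 20 were over 0.1. The labels give no meaning to the letters and most pairs did not pass that bar, so the libraries were not treated as paired. Still, 16 of 24 libraries correlated best with one of their own letter, where letters without meaning would give 8, a hint from the data and not from the design. With the block, ADX pooled called 4 members, with Col27a1 at adjusted p = 0.0523 in edgeR, noise pooled 2, night against day 3 and ADX at night under sham exposure 6. With 3 libraries a group, counts in single pairs rest on each library, and rare chains such as Col10a1 (760 counts in all) are measured with little depth.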
